A study of Rattus norvegicus with 12 samples.

Results

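Complement is a cascade of plasma and tissue proteins that marks debris, synapses and microbes for removal. The classical branch starts with C1q, built from A, B and C chains, and runs through the protease C2. The alternative branch runs through factor B and factor D, and both branches meet at C3. Fragments cut from C3 and, further down, from C5 are read by the receptors C3aR and C5aR. In brain, microglia are the main known source of C1q, and both microglia and reactive astrocytes are known to make C3, whose tagging of synapses has been linked to their loss after injury. Described here are the genes of 9 such proteins: the classical components C1qa, C1qb, C1qc and C2, the central component C3, the alternative components Cfb and Cfd, and the receptors C3ar1 and C5ar1. They were taken by symbol from the count table. All 9 were present among its 18800 symbols, and all 9 passed the filter on low counts that left 15487 genes for testing.

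Brain tissue of Sprague-Dawley rats was profiled by poly(A) RNA sequencing in 3 groups of 4 labelled samples. All rats were restrained alike. Controls had neither electroacupuncture nor, per the labels, a named operation, although their columns in the table are headed as sham. Model rats underwent middle cerebral artery occlusion and reperfusion (MCAO/R), in which a large artery of the brain is blocked and reopened, and the electroacupuncture group had the same operation plus electroacupuncture, needles carrying a weak current, at the Tianfu, Chize, Kongzui and Taiyuan points of the Lung Meridian. The labels give no brain region or side, no age and no time after the operation. The table holds 11 columns. Within groups, 3 pairs of columns had a variance between them of less than 2 times the sampling variance, so each pair was summed and counted as 1 sample. This left 3 control samples (A, B, C), 2 model samples (A, B) and 3 electroacupuncture samples (A, B, C), with 9335913 to 23835724 counts each. Per-sample values are given below in this order. The labels do not say that each sample came from its own animal, so the p-values describe only how far these samples spread, and that spread may be technical.

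The samples also differed in region markers. The median of 8 hippocampal markers, as log2 difference from the control mean, was -2.41 and -2.40 in the model samples and -1.74, -0.02 and -0.32 in those with electroacupuncture. The median of 8 striatal markers, chosen after their values were seen, was 2.47 for model A, 5.10 for electroacupuncture A and between -0.18 and 0.35 for the other samples. Their part in the complement values was not tested.

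Promoter sequences of 5 of the 9 genes were matched by symbol in the RefSeq table for assembly GRCr8: C1qa, C1qb, C3, Cfd and C3ar1. Each runs from 250 bases before the annotated start to 50 bases after it. The promoters of C3, which spread most between samples, and of C1qa and C1qb, which moved nearly in parallel, are printed 5′ to 3′ on the strand of the gene. Capitals mark a match to a searched motif.
C3 (GRCr8 chr9:2201290-2201589, minus strand): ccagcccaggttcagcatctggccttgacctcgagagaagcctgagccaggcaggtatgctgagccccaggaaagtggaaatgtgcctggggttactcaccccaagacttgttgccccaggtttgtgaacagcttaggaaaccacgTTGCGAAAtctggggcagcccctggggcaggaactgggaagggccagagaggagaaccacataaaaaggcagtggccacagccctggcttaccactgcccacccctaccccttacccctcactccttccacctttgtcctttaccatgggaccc
C1qa (GRCr8 chr5:154419884-154420183, minus strand): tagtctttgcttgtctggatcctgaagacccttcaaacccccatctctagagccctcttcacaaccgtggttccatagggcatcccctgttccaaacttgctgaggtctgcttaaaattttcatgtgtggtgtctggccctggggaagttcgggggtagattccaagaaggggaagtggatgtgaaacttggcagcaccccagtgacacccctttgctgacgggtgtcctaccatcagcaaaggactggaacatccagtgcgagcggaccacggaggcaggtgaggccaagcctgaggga
C1qb (GRCr8 chr5:154407778-154408077, minus strand): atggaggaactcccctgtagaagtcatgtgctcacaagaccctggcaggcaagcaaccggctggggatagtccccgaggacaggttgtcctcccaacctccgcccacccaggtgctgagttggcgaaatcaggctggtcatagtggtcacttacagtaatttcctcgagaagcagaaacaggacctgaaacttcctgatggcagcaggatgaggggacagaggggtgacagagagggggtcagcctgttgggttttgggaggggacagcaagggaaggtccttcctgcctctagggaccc
The search covered both strands for 4 motifs known from inflammatory and myeloid genes: TTGCNNAA for C/EBP factors, GAAANNGAA for the interferon-stimulated response element, GGGANTTTC for NF-kB and GAGGAAG for PU.1. C3 held 1 match, TTGCGAAA, which starts 104 bases before the annotated start. No motif matched in the other 4 promoters. Of 33469 rat promoters of the same length, 10.6% held TTGCNNAA, 9.71% GAAANNGAA, 1.15% GGGANTTTC and 12.4% GAGGAAG. A match is a string of letters and not a shown binding site. In the RefSeq gene order, C1qb, C1qc and C1qa are direct neighbours, as are C2 and Cfb. The counting of reads shared by neighbours was not given in the sources used here.

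All 3 C1q chains were highest in model A and electroacupuncture A. C1qa measured 32.3, 29.2 and 52.0 CPM (counts scaled to library size and composition) in the controls, 89.2 and 47.5 CPM in the model, and 110.4, 49.6 and 56.0 CPM with electroacupuncture. Model B lay inside the control range, and electroacupuncture B did too. C1qb measured 35.7, 44.3 and 63.1 CPM in the controls, 129 and 54.6 CPM in the model, and 111, 51.0 and 67.4 CPM with electroacupuncture. Here too model B and electroacupuncture B fell among the controls. C1qc measured 20.6, 18.2 and 38.8 CPM in the controls, 66.7 and 44.7 CPM in the model, and 64.1, 29.0 and 37.3 CPM with electroacupuncture. For this chain both model samples stood above every control, while electroacupuncture B and C lay within the control range.

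C2, the protease cut by the C1 complex, measured 9.16, 11.6 and 14.6 CPM in the controls, 52.7 and 16.1 CPM in the model, and 28.1, 13.6 and 14.4 CPM with electroacupuncture. Both model samples were above the controls, model B by a small margin, and electroacupuncture B and C were not.

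C3 had the widest spread of the 9 genes, 24.0-fold from its lowest to its highest sample, against 2.89-fold for Cfb to 6.08-fold for Cfd among the other 8. It measured 3.94, 7.84 and 7.70 CPM in controls. The model samples measured 84.9 and 12.1 CPM, and those with electroacupuncture 94.6, 18.4 and 13.2 CPM. All 5 samples from operated rats stood above all 3 controls, and C3 was the 1 gene of the 9 of which this held, against 2.32% of all genes tested. The counts behind these values ran from 43 in control A to 1584 in model A. The exact 95% Poisson interval, which covers counting error only, was 10.6 to 13.8 CPM in model B and 6.10 to 9.93 CPM in control B, the highest control. Counting error was therefore small beside the 7.02-fold gap between model A and model B and the 5.14-fold and 7.17-fold gaps from electroacupuncture A to B and C.

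Cfb, the protease precursor of the alternative branch, showed little order by group. It measured 7.52, 5.46 and 15.7 CPM in the controls, 15.8 and 12.5 CPM in the model, and 14.3, 7.74 and 11.9 CPM with electroacupuncture. Control C was as high as model A. Of the choroid plexus markers (5 tested of 6), Ttr, the carrier protein transthyretin, measured 1344 CPM in control C and 3.36 to 86.4 CPM in the other samples. Otx2 and Aqp1 were also highest in control C (3.39 and 3.48 CPM, against 3.12 and 2.26 CPM in electroacupuncture A). Folr1 and Clic6 were highest in electroacupuncture A (9.02 and 2.78 CPM, against 6.41 and 1.83 CPM in control C). The part of these markers in the Cfb values was not tested. Cfd, the protease that activates factor B and is best known as the fat-cell product adipsin, rested on 5 to 52 counts per sample. It measured 0.458, 0.568 and 0.550 CPM in the controls, 2.79 and 0.493 CPM in the model, and 1.04, 0.468 and 1.16 CPM with electroacupuncture. The exact 95% Poisson interval was 2.08 to 3.65 CPM in model A, above the 0.225 to 0.935 CPM of model B. Of 3 adipocyte markers in the table, Fabp4 measured 2.04 and 1.47 CPM in model A and electroacupuncture A and at most 0.275 CPM elsewhere, whereas Adipoq and Plin1 were at or below 0.825 CPM throughout. Their part in the Cfd values was not tested.

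The receptors were low throughout. C3ar1, the receptor for the C3a fragment, measured 1.92, 2.05 and 3.02 CPM in the controls, 5.41 and 2.19 CPM in the model, and 5.47, 4.38 and 1.27 CPM with electroacupuncture. Electroacupuncture A and B stood above every control and electroacupuncture C, on 12 counts, below them all. C5ar1, the receptor for C5a, measured 1.83, 0.682 and 3.21 CPM in the controls, 3.97 and 1.37 CPM in the model, and 3.64, 1.87 and 1.79 CPM with electroacupuncture. Control C was nearly as high as electroacupuncture A, and the groups overlapped.

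**Figure D1:**
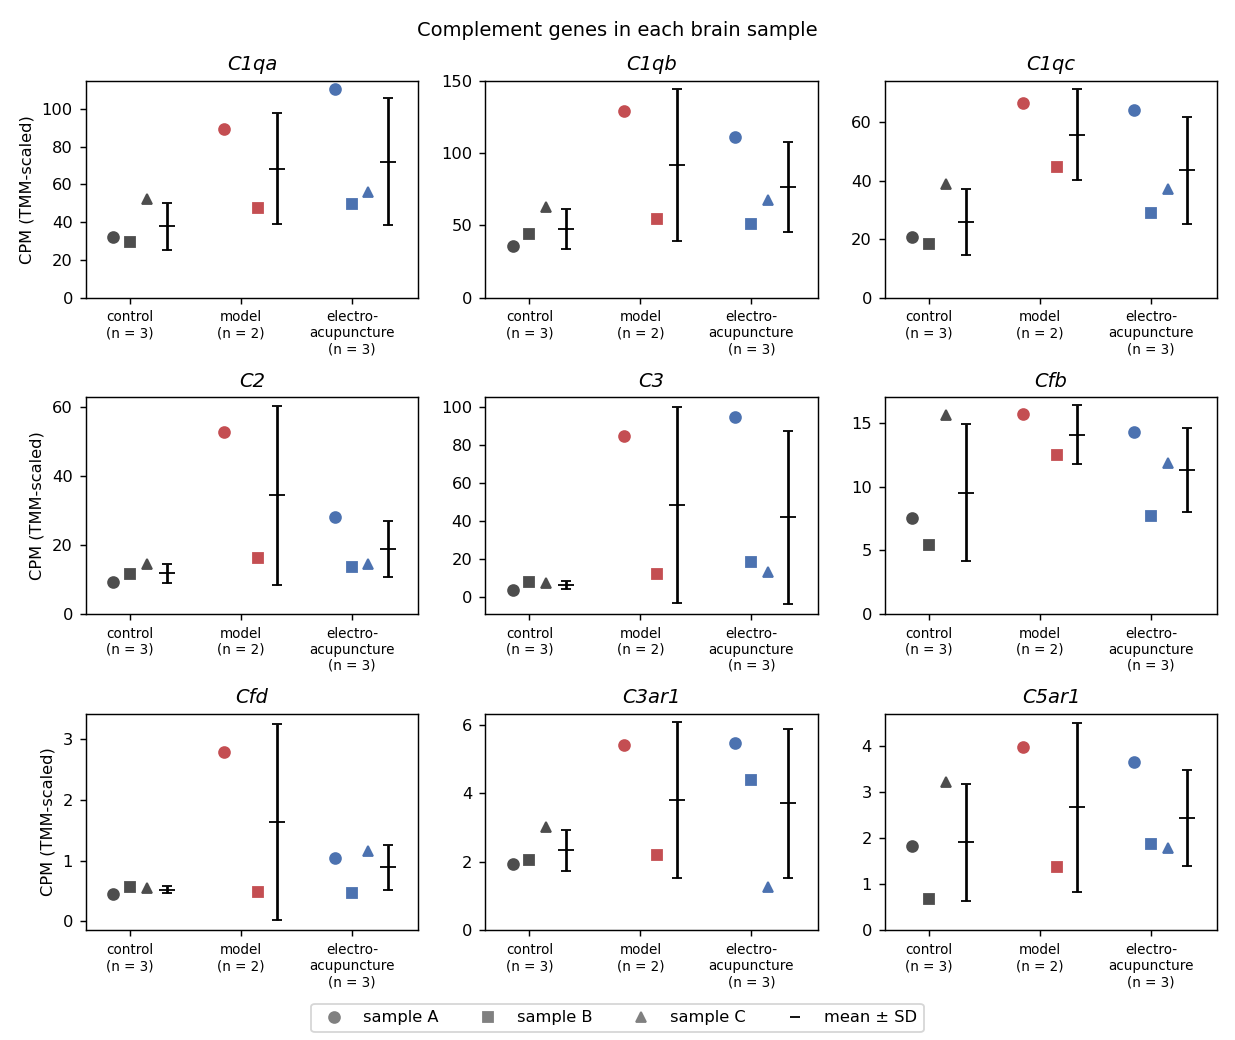
Each panel plots the CPM (scaled by the TMM method, linear axis) of 1 complement gene in every sample, by group, with the mean and SD of the group beside the points. Model A and electroacupuncture A (circles) are the pair of highest samples for 7 of 9 genes, and in the C3 panel all 5 samples from operated rats lie above the 3 controls.

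Model A and electroacupuncture A were thus the pair of highest samples for 7 of the 9 genes, the exceptions being Cfb and Cfd. Among all 15487 genes tested this held for 14.4%. It also held for 10 of 12 microglia markers, 7 of 8 pan-myeloid markers, 7 of 8 striatal markers and 3 of 4 other complement receptors. Among the rest it held for 5 of 11 other complement components, 3 of 7 astrocyte markers and 2 of 6 fibroblast markers. It held for 3 of 14 regulators, 1 of 4 neutrophil markers and the 1 adipocyte marker tested. None of the border macrophage, neuron, choroid plexus or hippocampal markers had this pair. In bulk tissue, more cells of a type and more RNA per cell cannot be told apart.

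Model against control sets MCAO/R beside rats for which the labels name no operation. All 9 genes were higher in estimate and none was called at an adjusted p under 0.05 (edgeR quasi-likelihood test, Benjamini-Hochberg over all genes). Of all genes tested 51.5% were higher in estimate, and 0.00646% were called, which is 1 gene, Camk2d, no complement gene. Higher at an unadjusted p under 0.05 were 3 of the 9, C1qc, C2 and C3, against 7.61% of all genes. The same 3 had both model samples above every control, against 18.2% of all genes. The median log2 fold change of the 9 was 0.94, beside 0.02 over all genes tested.

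C3 differed most: controls averaged 6.49 ± 2.21 CPM (SD, n = 3) and model samples 48.5 ± 51.5 CPM (SD, n = 2), a fitted 7.47-fold difference (log2 fold change 2.90, SE 1.04, edgeR adjusted p = 0.292). DESeq2 on the same 8 samples called C3 (log2 fold change 2.91, adjusted p = 0.0329) and none of the other 8, and over all genes it called 4.96% (763 genes). C2 averaged 11.8 ± 2.71 and 34.4 ± 25.9 CPM (fitted log2 fold change 1.54, SE 0.52, edgeR adjusted p = 0.261). C1qc averaged 25.9 ± 11.3 and 55.7 ± 15.6 CPM (fitted log2 fold change 1.10, SE 0.43, edgeR adjusted p = 0.318). C1qa and C1qb had log2 fold changes of 0.85 and 0.94, Cfd of 1.63, C3ar1 of 0.70, Cfb of 0.56 and C5ar1 of 0.47, with adjusted p from 0.398 to 0.791.

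The size of these differences rested on model A. Without it the log2 fold change of C3 was 0.90 (SE 1.05, edgeR adjusted p = 0.835), that of C2 0.45, of C1qa 0.32 and of C1qb 0.19, and those of Cfd, C3ar1 and C5ar1 turned to -0.09, -0.10 and -0.49. C1qc kept 0.78. That fit leaves 1 model sample, which is assumed to vary like the other groups.

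The second comparison, electroacupuncture against model, concerns the added treatment in operated rats. None of the 9 genes was called by edgeR or by DESeq2, none had an unadjusted edgeR p under 0.05 (13.5% of all genes), and the groups overlapped for all 9 (12.9% of all genes lay without overlap higher and 11.7% lower). Over all genes edgeR called 0 (0%) and DESeq2 4.48% (689 genes). In estimate, 8 of the 9 were lower with electroacupuncture, against 46.6% of all genes tested, with a median log2 fold change of -0.26 beside 0.03 over all genes. C3 averaged 48.5 ± 51.5 CPM in model samples and 42.0 ± 45.6 CPM (SD, n = 3) after electroacupuncture (fitted log2 fold change -0.21, SE 1.01, edgeR adjusted p = 0.954). C2 measured 34.4 ± 25.9 and 18.7 ± 8.13 CPM (log2 fold change -0.88, SE 0.51, edgeR adjusted p = 0.525), and C1qa 68.3 ± 29.5 and 72.0 ± 33.4 CPM (log2 fold change 0.07, SE 0.44, edgeR adjusted p = 0.963).

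These signs turned with single samples. Without model A the log2 fold change of C3 was 1.79 and that of C2 0.22, and without electroacupuncture A they were -1.60 and -1.28, with edgeR adjusted p of 0.234 or more in all 4 cases. With model A and electroacupuncture A both left out, a choice made after seeing the data, C3 stood at 0.39 (SE 0.42, edgeR adjusted p = 0.653) and C2 at -0.20. The samples therefore do not show whether electroacupuncture altered these genes in either direction.

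**Figure D2:**
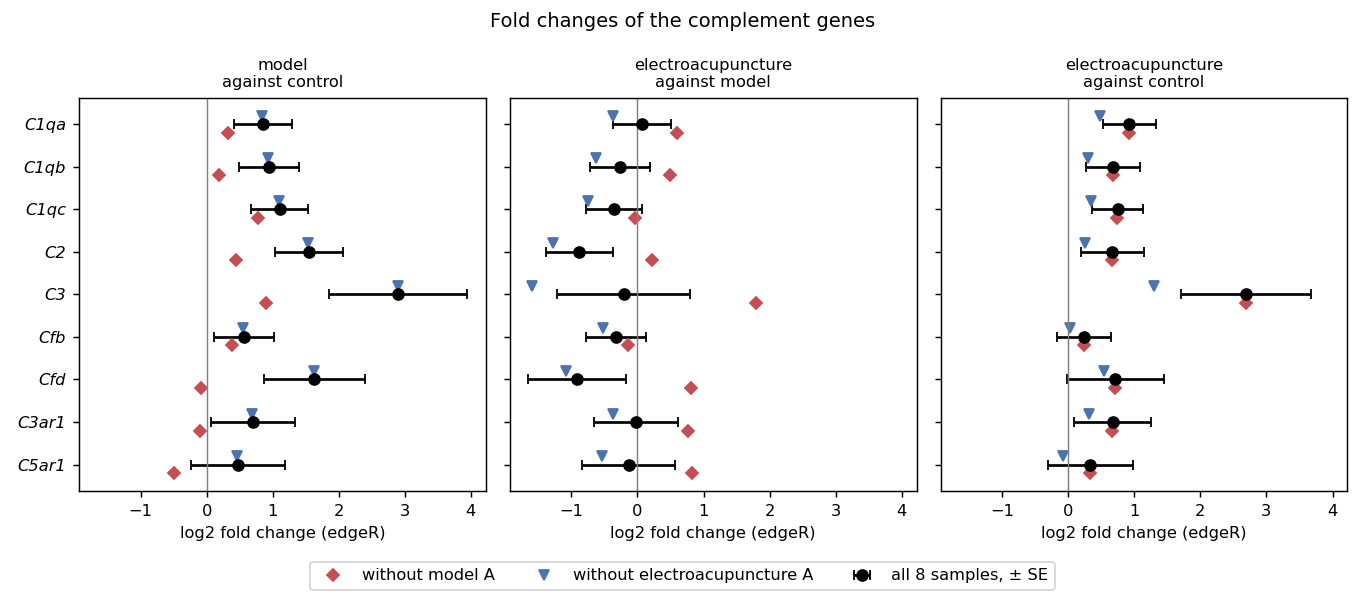
The panels plot the log2 fold change (edgeR) of each gene in the 3 comparisons: black points with SE bars use all 8 samples, red diamonds leave out model A and blue triangles leave out electroacupuncture A. For C3 in electroacupuncture against model the value moves from -0.21 to 1.79 without model A and to -1.60 without electroacupuncture A.

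The third comparison sets electroacupuncture against control, and it shares samples with both others. All 9 genes were higher in estimate (50.8% of all genes tested), with a median log2 fold change of 0.68 beside 0.01. None was called by edgeR (0% of all genes) or by DESeq2 (0.0065% of all genes, which is 1 gene, LOC103690016). C1qa and C3 were higher at an unadjusted edgeR p under 0.05, against 2.71% of all genes. C3 was the 1 gene of the 9 with every electroacupuncture sample above every control, against 5.98% of all genes (log2 fold change 2.69, SE 0.98, edgeR adjusted p = 0.843). Without electroacupuncture A its log2 fold change was 1.29. C1qa measured 37.8 ± 12.4 CPM in the controls and 72.0 ± 33.4 CPM after electroacupuncture (fitted log2 fold change 0.93, SE 0.40, edgeR adjusted p = 0.843). Cfb and C5ar1 stood at 0.24 and 0.34 and turned to -0.04 and -0.05 without control B.

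Within samples, the 9 genes did not keep 1 proportion. The 3 C1q chains were the closest to each other, with a root mean square difference of 0.20 to 0.26 between their centred log2 CPM over the 8 samples. C3 was at least 0.90 from each of the other 8. The ratio of C1qa to C1qb CPM stayed between 0.659 and 0.992, and that of C1qc to C1qb between 0.410 and 0.615 except in model B, where it was 0.818. The deposited C1qc counts carried decimals in the columns of model B and were whole in every other column, and those of C3ar1 carried decimals in most columns. How the decimals arose was not given in the labels. As a percentage of the summed C1q CPM, C3 made 4.45%, 8.55% and 5.00% in controls, 29.8% and 8.25% in the model, and 33.1%, 14.2% and 8.20% with electroacupuncture. Model B and electroacupuncture C were thus within the control range on this measure, while model A and electroacupuncture A were far above it.

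**Figure D3:**
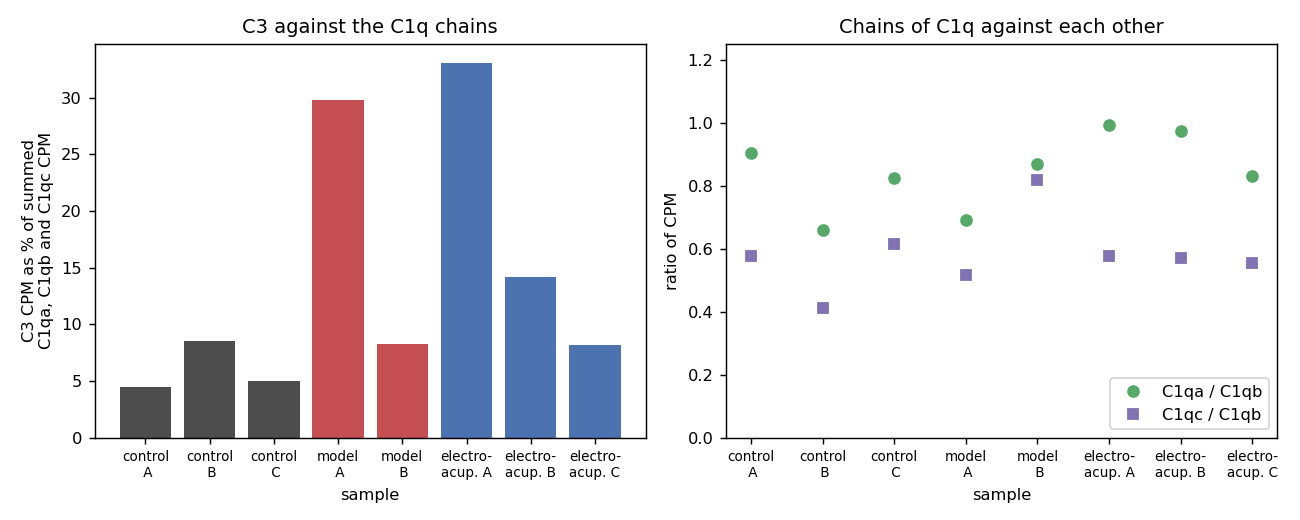
The left panel shows C3 CPM as a percentage of the summed C1qa, C1qb and C1qc CPM in each of the 8 samples, and the right panel the ratios of C1qa and of C1qc to C1qb. C3 is at 29.8% and 33.1% in model A and electroacupuncture A and stays at or below 14.2% in the other 6 samples, and C1qc / C1qb is highest in model B at 0.818.

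Most microglia markers, like most of the 9 genes, had model A and electroacupuncture A as their 2 highest samples. The exceptions were Sall1, highest in model B, and Gpr34, which was higher in electroacupuncture B (18.0 CPM) than in model A (15.4 CPM). Of 13 listed markers 12 were in the table and tested. In model against control all 12 were higher in estimate (51.5% of all genes), 10 of them without overlap (18.2% of all genes), and none was called. Their summed level ran from 228 to 255 CPM in the controls, from 418 to 572 CPM in the model and from 239.7 to 839 CPM with electroacupuncture, and no marker was at 0 throughout. Of that level Sall1 made 102 CPM in model B and 45.4 CPM in model A, against 16.3 to 19.9 CPM in the controls. Csf1r, the receptor microglia need to survive, measured 46.9, 42.9 and 56.3 CPM in the controls, 127 and 72.6 CPM in the model, and 221, 73.1 and 54.5 CPM with electroacupuncture. Tmem119, a microglial surface protein, measured 9.16, 9.78 and 7.42, then 22.9 and 21.7, then 48.7, 14.3 and 14.2 CPM in the same order. P2ry12, a purine receptor of resting microglia, measured 34.0 and 60.1 CPM in model A and electroacupuncture A, and Cx3cr1, the fractalkine receptor, 10.1 and 14.8 CPM. In the remaining samples these measured 11.1 to 26.7 CPM and 3.87 to 9.27 CPM.

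Set against the microglia median of the same sample, the complement genes other than C3 were below the control mean in electroacupuncture A. C1qa and C5ar1 were still inside the range of the controls there. The 8 genes lay between -1.03 (Cfb) and -0.16 (C1qa), as log2 difference from the control mean minus the microglia median. In model A the same 8 lay between -0.38 (Cfb) and 0.94 (C2), with Cfd at 0.90 and C1qa, C1qb and C1qc at 0.05, 0.24 and 0.21. C3 stayed at 2.51 and 0.50 in the model and at 2.15, 0.92 and 0.94 with electroacupuncture, against -0.63, 0.49 and 0.15 in controls. Model B and control B were level on this measure. The part of microglial content in the group differences was not tested.

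Other marker lists were read in the same way, as medians of log2 difference from the control mean. Pan-myeloid markers (8 genes) lay at 1.70 and 0.02 in the model and at 2.07, 0.33 and 0.13 with electroacupuncture, so that they were further from the controls than microglia markers in model A and electroacupuncture A (1.23 and 1.75). Border macrophage and monocyte markers (5 tested of 7 listed) lay at 0.65 for model A and -0.14 for electroacupuncture A, with summed levels of 16.0 to 24.4 CPM in the controls, 20.4 to 41.0 CPM in the model and 12.4 to 18.1 CPM with electroacupuncture. Neutrophil markers (4 tested of 8) lay at 0.31 and 0.44 in the same samples and summed to 12.8 to 16.4, 14.9 to 24.9 and 6.33 to 23.6 CPM. Astrocyte markers (7 genes) lay at 0.50 and 0.10 in the model and at 0.37, 0.03 and 0.23 with electroacupuncture. Fibroblast markers (6 genes) lay at 1.09 and 0.24 in the model and at 0.48, 0.25 and -0.16 with electroacupuncture. Neuron markers (6 genes) lay at -0.29 for model A and -1.22 for electroacupuncture A, against -0.14 to 0.31 in the other samples.

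**Figure D4:**
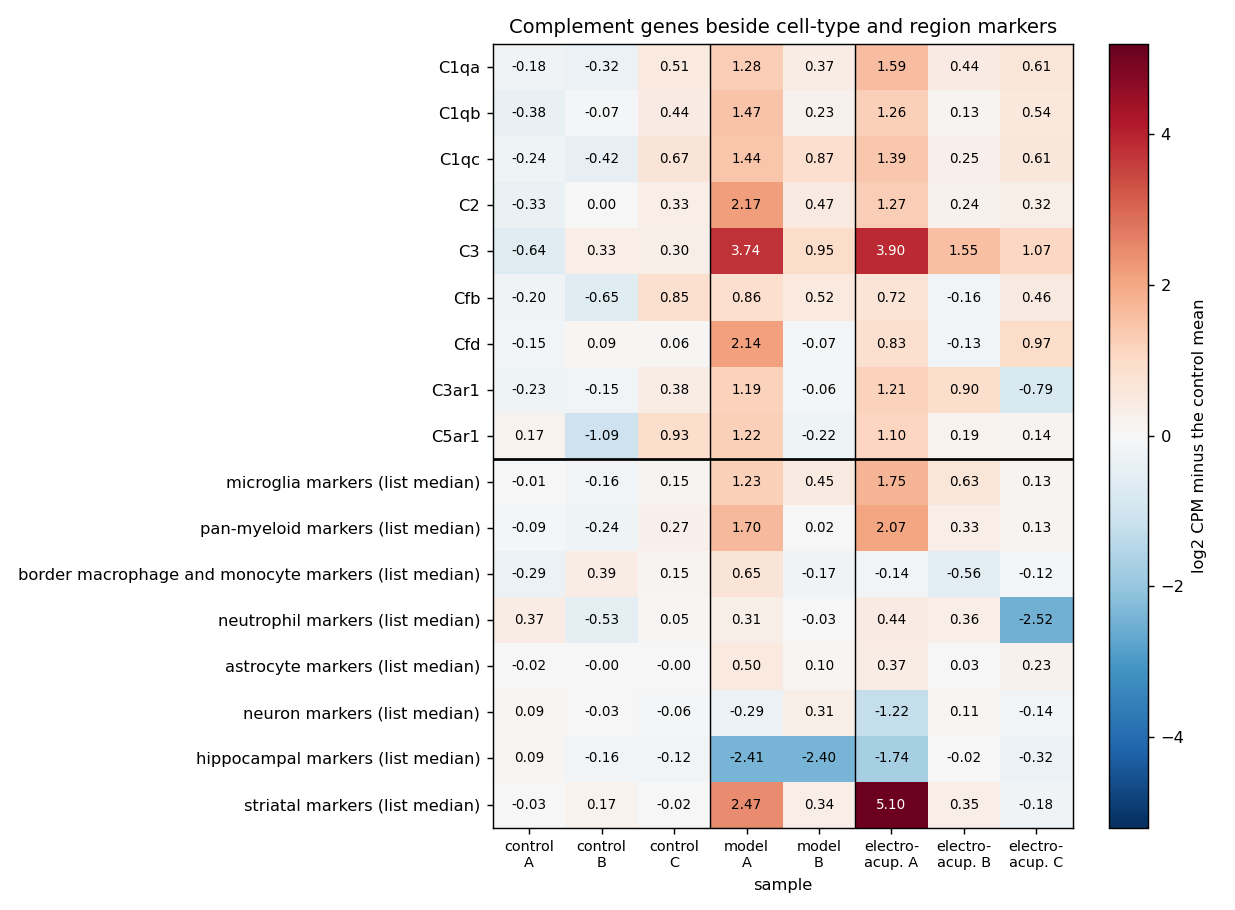
The colour map gives log2 CPM minus the control mean for the 9 complement genes (upper rows) and the median of 8 marker lists (lower rows) in each sample, with values printed in the cells. Model A and electroacupuncture A are high in C3 (3.74 and 3.90), in microglia markers (1.23 and 1.75) and in striatal markers (2.47 and 5.10), and model A, model B and electroacupuncture A are low in hippocampal markers.

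The rest of the pathway was read from 3 further lists. Of 18 other components, 11 passed the filter. In model against control 9 were higher in estimate and 2 lower, none was called, and their median log2 fold change was 0.58. In electroacupuncture against model 3 were higher and 8 lower, with a median of -0.45 and none called. The terminal components C5, C6, C8a, C8b and C9, which build the membrane pore, were too low to test. C7, of the same pore, was tested and measured 4.09 to 5.22 CPM in the controls, 8.14 and 2.63 CPM in the model, and 9.89, 4.29 and 5.27 CPM with electroacupuncture (model against control edgeR adjusted p = 0.892). Mbl2, a lectin that starts the lectin branch, measured 0.733 to 0.917 CPM in the controls, 4.29 and 1.64 CPM in the model, and 0.738 to 1.47 CPM with electroacupuncture (model against control log2 fold change 1.85, SE 0.53, edgeR adjusted p = 0.208). Both model samples stood above all 6 others. C8g, a lipocalin-like chain of C8, measured 16.3 CPM in model B and 2.38 to 3.48 CPM in the other 7 samples. Cfp, the stabiliser of the alternative convertase, measured 31.0 and 25.3 CPM in the model against 18.7 to 24.9 CPM in controls (edgeR adjusted p = 0.463). With electroacupuncture Cfp measured 20.6, 22.1 and 23.7 CPM, within the control range.

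Of 19 regulators, 14 were tested. In model against control 7 were higher and 7 lower in estimate with a median log2 fold change of 0.02, and in electroacupuncture against model 9 were higher and 5 lower with a median of 0.13. None was called in either. Cd55, the decay-accelerating factor that breaks up C3 convertases on the cell surface, had the largest separation. It measured 6.69, 4.89 and 4.12 CPM in the controls, 1.29 and 1.04 CPM in the model, and 3.38, 3.61 and 3.90 CPM with electroacupuncture. The 3 groups did not overlap at any point, with electroacupuncture between the others (model against control log2 fold change -2.16, SE 0.35, edgeR adjusted p = 0.108). In electroacupuncture against model its log2 fold change was 1.63 (SE 0.34, edgeR adjusted p = 0.142). Of the 14 regulators, 4 were lower and 2 higher without overlap in model against control. Of all genes 18.2% were higher without overlap in that comparison, and the share that was lower was not computed. In electroacupuncture against model 3 regulators were higher and 1 lower without overlap, against 12.9% and 11.7% of all genes. The share of all genes with the order of Cd55 over the 3 groups was not computed. Cd55 was low in both model samples alike, unlike the 9 genes above. Hippocampal markers were also low in both model samples, and their part in the Cd55 values was not tested.

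Cr1l, a rodent regulator of C3 on the cell surface, measured 22.9 to 26.5 CPM in the controls, 20.6 and 17.8 CPM in the model and 23.5 to 29.0 CPM with electroacupuncture (edgeR adjusted p = 0.365 for model against control and 0.273 for electroacupuncture against model). Cd46, a cofactor for C3b cleavage, measured 11.9 and 6.40 CPM in the model, 5.80 to 5.96 CPM in controls and 4.25 to 5.73 CPM with electroacupuncture. Serping1, the C1 inhibitor, was named after its values were seen. It measured 48.7 CPM in model A and 79.6 CPM in electroacupuncture A, and 3.07 to 9.60 CPM in the other 6 samples.

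Of 7 other receptors, 4 were tested, and all 4 were higher in estimate in model against control with a median log2 fold change of 1.07 and none called. C5ar2, a second C5a receptor, measured 3.11 and 2.90 CPM in the model against 1.48 to 1.92 CPM in controls (edgeR adjusted p = 0.550). With electroacupuncture C5ar2 measured 4.86, 2.72 and 1.16 CPM, from above both model samples to below every control. Itgb2 and Itgam, the chains of complement receptor CR3 on microglia and myeloid cells, were highest in electroacupuncture A. Itgb2 measured 6.69 to 9.89 CPM in the controls, 25.5 and 13.3 CPM in the model, and 89.4, 11.3 and 8.65 CPM with electroacupuncture. Itgam measured 2.66 to 7.33 CPM in the controls, 21.1 and 4.05 CPM in the model, and 68.9, 6.76 and 8.12 CPM with electroacupuncture.

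**Figure D5:**
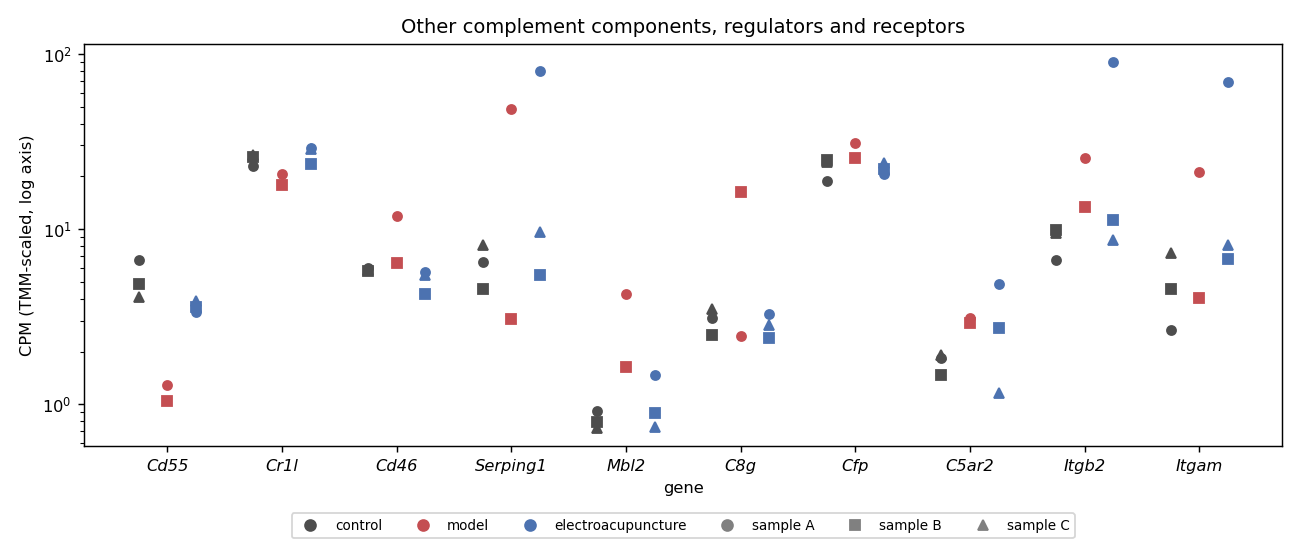
Each point is the CPM (log axis) of 1 sample for 10 other complement genes, coloured by group and shaped by sample letter. Cd55 is lowest in both model samples (1.29 and 1.04 CPM), while Serping1, Itgb2 and Itgam are highest in electroacupuncture A, followed by model A.

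Genes with the most similar pattern over the 8 samples were sought among 12061 genes whose mean was 5 CPM or more, by root mean square difference of centred log2 CPM. Closest to the mean of the 3 C1q chains were Parp9 (0.125) and Psmb9 (0.140), followed by Rsph9, Ctss and Parp14 (0.180 to 0.194), against a median of 0.676 over all genes compared. Parp9 and Parp14 belong to the ADP-ribosyltransferase family, Psmb9 is a subunit of the immunoproteasome and Ctss is a lysosomal protease. Closest to C3 were Mx1 (0.406), Tnc (0.492), Dlx5 (0.528), Cd4 (0.546) and Patj (0.563), against a median of 1.57. Mx1, an interferon-induced GTPase, measured 20.6 CPM in model A and 11.8 CPM in electroacupuncture A and 0.458 to 2.95 CPM elsewhere. Tnc, the matrix protein tenascin-C, measured 95.2 and 65.2 CPM in the same samples and 7.33 to 14.8 CPM elsewhere. Dlx5 measured 29.1 and 43.2 CPM there and 2.47 to 4.43 CPM elsewhere. Cd4 measured 79.8 and 81.5 CPM (7.24 to 14.7 CPM elsewhere), and Patj 18.4 and 32.7 CPM (2.29 to 6.95 CPM elsewhere).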

How the data were processed

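The values deposited by the authors are expected counts per gene (70.5% to 72.1% of a column exactly whole), not scaled between columns. Per the submitters' processing notes, featureCounts 1.5.0-p3, HISAT2 2.0.5, DESeq2 1.16.1 and StringTie 1.3.3b were used, in roles not stated. The genome build was not given in the sources used here. Columns were mapped to groups by name: 3 sham, 4 model and 4 electroacupuncture. The 4 symbols on 2 rows were summed and values rounded. Columns were compared by a chi-square statistic over genes whose counts summed to at least 20. The 3 pairs within a group under 2 times the sampling variance (1.34 to 1.40) were summed; the other 12 lay at 4.74 to 26.5.

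Counts of all 8 samples were fitted with edgeR 4.0.16 in R 4.3.3 by its robust quasi-likelihood test (two-sided) after TMM scaling and the default filter by group. Residual degrees of freedom were 5, and the common biological coefficient of variation was 36.8%. The script was tested on simulated data. A gene was called at a Benjamini-Hochberg adjusted p under 0.05, and its SE came from the F statistic. CPM used TMM scaling; levels as log2 differences used a prior count of 2. DESeq2 1.42.0, other scalings, filters and sample sets were alternatives. The genes and lists were chosen with earlier results of these data known. Named were all 9 genes, the 3 genes of each other complement list with the smallest p in model against control, 4 microglia markers, and the 5 genes closest in pattern to C1q and to C3. Others were named outside these rules, among them C7, Serping1 and single choroid plexus, adipocyte and microglia markers.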

Additional observations from a re-analysis of the deposited data

How the results depend on the processing

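No paired analysis was possible because the columns could be tied to groups but not to numbered samples. Over 27 gene-by-comparison values and all alternatives, 397 of 427 recomputed log2 fold changes kept their direction, and 1 was called, C3 in model against control with DESeq2 (1 of the 9 genes called in place of 0). Of the 30 that turned, 20 were in electroacupuncture against model. The cause was not tested. Leaving out a sample of the group not compared hardly moved an estimate, so those fits had little room to turn a direction. Without electroacupuncture A, B or C, for example, C3 in model against control stood at 2.89, 2.91 and 2.91. Cfd dropped out under the stricter filter, and in the fits of only model and control or only electroacupuncture and control. In model against control, leaving out single samples gave -0.092 to 2.38 for Cfd, -0.10 to 1.20 for C3ar1 and -0.49 to 1.06 for C5ar1. In electroacupuncture against model it gave -0.37 to 0.60 for C1qa, -0.75 to 0.49 for C1qb, -1.49 to 0.22 for C2, -1.60 to 1.79 for C3, -1.67 to 0.80 for Cfd, -0.53 to 0.76 for C3ar1 and -0.70 to 0.82 for C5ar1. In electroacupuncture against control it gave -0.039 to 0.80 for Cfb and -0.074 to 0.93 for C5ar1. Without model A and electroacupuncture A together (chosen after seeing the data), Cfd, C3ar1 and C5ar1 stood at -0.089, -0.10 and -0.50 in model against control. In electroacupuncture against model C1qb, C3, Cfd, C3ar1 and C5ar1 then stood at 0.12, 0.39, 0.61, 0.43 and 0.42, and in electroacupuncture against control C5ar1 at -0.077. With all 11 columns as separate libraries C1qa and C3ar1 turned to -0.039 and 0.030 in electroacupuncture against model.

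Counts of all called genes moved more. In model against control 1 gene was called, against 0 with total counts, 763 with DESeq2, 1129 with 11 columns, 294 with only these groups in the fit, 1333 without model A and electroacupuncture A, and 0 to 565 leaving out single samples (356 without model A, 565 without electroacupuncture A). Total counts moved the median of all genes in that comparison from 0.02 to 0.13. In electroacupuncture against model 0 genes became 689 with DESeq2, 1666 with 11 columns, 1104 without both samples and 0 to 308 leaving out single samples (308 without model A, 278 without electroacupuncture A). In electroacupuncture against control 0 became 1 with DESeq2. Depth limits Cfd, C3ar1 and C5ar1, which had as few as 5, 12 and 6 counts in a sample.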
